A study of Mus musculus with 15 samples.

Results

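The comparison described here asks whether the chromatin response of mouse embryonic fibroblasts to Fra2 changed with time. It is the late Fra2 effect minus the early Fra2 effect, called the interaction. It compares 12 of the 15 libraries of the series, 3 in each of 4 groups. The late Fra2 group received guide RNAs against the Fra2 gene Fosl2 and was collected at the later time, and the late control group received scrambled guides and was collected with it. The early Fra2 and early control groups received the same kinds of guides and were collected at the earlier time. All 12 libraries came from fibroblasts of a C57/B16 background that carried a CRISPRa-VPR-mCherry construct, were infected with lentivirus and, per the labels, were sorted as mCherry+/THY1+. CRISPRa uses a Cas9 without cutting activity, fused here to the VPR activator, to raise transcription of the gene its guides point to. The sorted cells are a mixed population, and the labels leave unsaid whether replicates were grown apart. The p-values therefore measure variation among these libraries, part or all of which may be technical.

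The sample labels give day 10 for the 6 late libraries, day 3 for 5 of the 6 early libraries and day 4 for early control 3, while the series design gives 4 and 11 days. Early and late are therefore used in place of days. The other 3 libraries, from fibroblasts treated with the Ezh2 inhibitor GSK343 and labelled day 4, entered the fit as a further group. They are not compared, but they add to its estimate of the variation among libraries and so bear on which peaks are called.

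Fra2 is a Fos-family protein of the AP-1 transcription factor, which binds DNA as a dimer of Fos and Jun proteins and takes part in wound, growth-factor and matrix responses of fibroblasts. Omni-ATAC-seq measures how readily a transposase cuts DNA, so a high read count at a region marks open chromatin. A Fra2 effect that differs between times can come from a change in the Fra2 cells, from a change in the control cells, or from both, because the interaction equals the change of the Fra2 arm with time (late Fra2 over early Fra2, the Fra2 shift) minus the change of the control arm (late control over early control, the control shift).

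Read counts were deposited for 206367 consensus regions of 502 bp, called peaks here, of which 206349 were tested. The 12 libraries held 6.75 to 23.4 M (mega) reads in peaks. Early control 3 was the shallowest at 6.75 M reads, and the other 11 held at least 12.7 M. All 8 fibroblast markers examined had a peak within 1 kb of a gene end, with summed levels of 167 to 179 CPM (reads in a peak per M reads in peaks, after TMM scaling) in late Fra2, 196 to 229 in late control, 187 to 213 in early Fra2 and 183 to 242 in early control. No such peak was found for Pecam1 and Emcn of 4 endothelial markers, Krt8 of 4 epithelial, Ptprc of 3 macrophage, Neurod1 of 3 neuronal and Myog of 3 muscle markers. The remaining markers of those types had open peaks. Their endothelial sum was 9.95 to 10.5 CPM in late Fra2, 5.68 to 7.74 in late control, 8.21 to 10.5 in early Fra2 and 4.61 to 7.70 in early control. The neuronal sum was 23.6 to 25.6 CPM in late Fra2, 29.2 to 36.3 in late control, 21.7 to 26.7 in early Fra2 and 24.9 to 31.6 in early control. The muscle sum was 9.76 to 12.2 CPM in late Fra2, 13 to 16.9 in late control, 11 to 13.3 in early Fra2 and 11.1 to 22.5 in early control. The macrophage sum was 19.3 to 23 CPM in late Fra2, 18.5 to 19.2 in late control, 16.9 to 20.7 in early Fra2 and 15.4 to 17.9 in early control. The epithelial sum was 8.43 to 10.4 CPM in late Fra2, 8.96 to 10 in late control, 8.31 to 10.8 in early Fra2 and 9.52 to 13.4 in early control. Late Fra2 did not overlap late control in the fibroblast, endothelial, neuronal, muscle and macrophage sums, the last by 19.3 against 19.2 CPM. At the early time only the endothelial sum lacked overlap between Fra2 and control. Among single peaks, 31.3% of all tested had no overlap between late Fra2 and late control. That share is for single peaks, and no such share was worked out for sums over several peaks. The part of these cell types in the results was not tested, and 0 peaks at any of these markers were called in the interaction. In a bulk library a change in the share of cells of a type and a change in openness per cell cannot be told apart.

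Sequences are shown for 3 promoters largely under a called peak, for the Fosl2 promoter and for that next to the peak with the smallest p. They are RefSeq windows of 300 bases (250 before the start site and 50 after it, build GRCm38.p6), written 5′ to 3′ on the strand of the gene. Capitals mark TGANTCA, the AP-1 motif, which reads the same on both strands. It occurs in 7.81% of 32817 promoter windows and in 6.96% of the 15797 that overlap any peak. Among the 4 promoter windows that overlap a called peak it was found in 0.
Gm52671, chr4:106301507-106301806, minus strand: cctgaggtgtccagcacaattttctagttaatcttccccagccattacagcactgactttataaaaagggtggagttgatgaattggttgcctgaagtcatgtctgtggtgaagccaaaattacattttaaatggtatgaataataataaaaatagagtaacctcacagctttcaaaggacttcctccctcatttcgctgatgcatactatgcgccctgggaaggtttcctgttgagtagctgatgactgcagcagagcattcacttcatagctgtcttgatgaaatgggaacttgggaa
Gm29010, chr2:128433460-128433759, plus strand: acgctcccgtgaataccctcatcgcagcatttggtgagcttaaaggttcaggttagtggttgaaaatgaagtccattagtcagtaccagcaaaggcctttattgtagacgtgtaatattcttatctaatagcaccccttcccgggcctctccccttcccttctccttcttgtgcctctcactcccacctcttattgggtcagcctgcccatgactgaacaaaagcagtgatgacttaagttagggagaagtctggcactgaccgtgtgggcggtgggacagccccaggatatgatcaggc
Gm15462, chr3:30685835-30686134, plus strand: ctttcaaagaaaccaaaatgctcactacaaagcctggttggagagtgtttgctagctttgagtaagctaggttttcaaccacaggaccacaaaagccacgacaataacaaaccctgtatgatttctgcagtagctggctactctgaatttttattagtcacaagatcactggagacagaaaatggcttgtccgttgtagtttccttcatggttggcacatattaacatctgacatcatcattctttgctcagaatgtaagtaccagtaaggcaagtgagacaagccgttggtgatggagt
Fosl2, chr5:32136222-32136521, plus strand: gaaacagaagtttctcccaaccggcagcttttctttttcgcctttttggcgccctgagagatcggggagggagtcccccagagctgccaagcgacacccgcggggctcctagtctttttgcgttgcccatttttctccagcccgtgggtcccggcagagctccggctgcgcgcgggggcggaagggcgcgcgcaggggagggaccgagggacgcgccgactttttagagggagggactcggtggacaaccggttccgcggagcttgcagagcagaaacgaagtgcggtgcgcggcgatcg
Olfr654, chr7:104587469-104587768, plus strand: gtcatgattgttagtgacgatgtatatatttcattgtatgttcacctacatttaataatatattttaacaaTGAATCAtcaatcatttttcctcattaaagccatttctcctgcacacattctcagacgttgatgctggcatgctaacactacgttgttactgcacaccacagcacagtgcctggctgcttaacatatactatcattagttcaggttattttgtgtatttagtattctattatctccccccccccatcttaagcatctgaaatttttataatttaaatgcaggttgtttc

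The targeted gene was examined first. Fosl2 lies on chromosome 5 at 32136472 to 32157840 (GRCm38.p6), and 32 peaks lie within 10 kb of it. Of these, 8 rose and 1 fell in late Fra2 against late control, and 9 rose in early Fra2 against early control. The promoter peak over the Fosl2 sequence above (chr5:32136166-32136667) held 8.48, 9.28 and 8.60 CPM in late Fra2, 7.17, 7.66 and 8.47 CPM in late control, 13.4, 14.9 and 9.80 CPM in early Fra2 and 9.82, 8.63 and 6.58 CPM in early control. It rose at the early time (log2 0.56, SE 0.16, adjusted p = 0.0118) and its late value was 0.17 (adjusted p = 0.522). The interaction there was -0.39 (SE 0.23, adjusted p = 0.608), so the loss of the call at the late time is not shown to be a change with time. Downstream of the gene, the peak at chr5:32158186-32158687 held 7.15, 7.95 and 8.10 CPM in late Fra2 and 4.11, 3.20 and 3.35 CPM in late control. The same peak held 7.45, 8.07 and 9.22 CPM in early Fra2 and 4.19, 3.56 and 3.78 CPM in early control, with no overlap between Fra2 and control at either time. Across the 32 peaks the interaction ran between -0.77 and 0.63 with a median of -0.11. It was called at 0 of them by edgeR, at 2 by an unadjusted p under 0.05, and the smallest adjusted p was 0.448. The arms were not all steady there. The Fra2 shift was called lower at 3 of the 32 peaks and the control shift lower at 2, with 0 higher in either.

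Over the whole genome the Fra2 effect was called at 20603 peaks late (9.98% of those tested, 6.44% higher and 3.54% lower in Fra2) and at 30935 peaks early (15%, 10.1% higher and 4.92% lower), by edgeR's quasi-likelihood test at a Benjamini-Hochberg adjusted p under 0.05. The interaction was called at 193 peaks, 0.0935% of those tested, while 19740 had an unadjusted p under 0.05. A fit of the 12 libraries alone, without the inhibitor group, called 67 peaks, all of them among the 193. The late effect was above the early effect at 24 of the 193 (0.0116%) and below it at 169 (0.0819%). Their interaction ranged in size between 0.95 and 3.20 on the log2 scale. Late and early effects over all tested peaks had a Pearson r of 0.59, given as a description across peaks, which are not replicates. The 2 effects share no library.

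**Figure D1:**
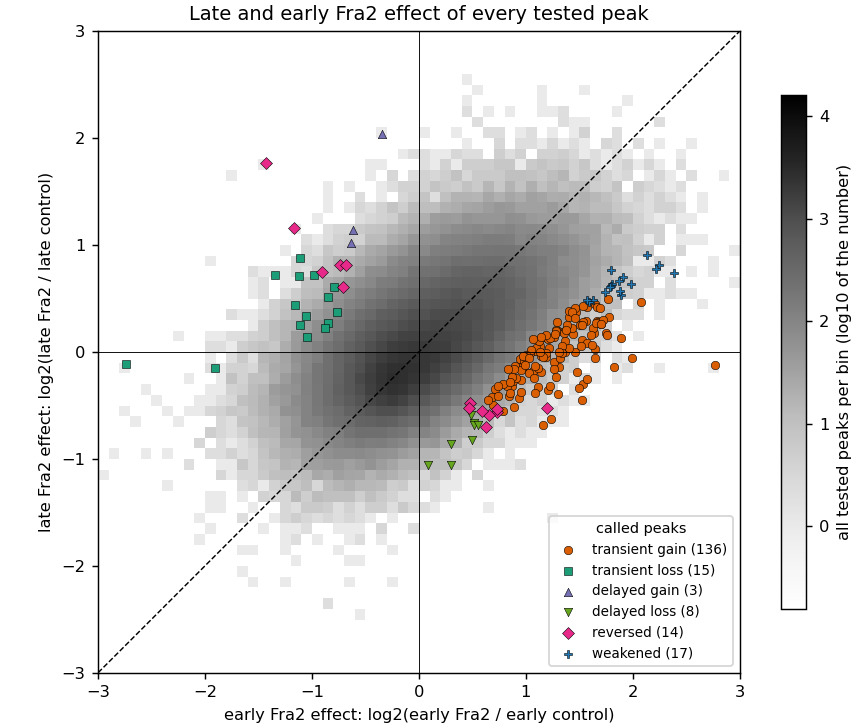
Late Fra2 effect (vertical, log2) against early Fra2 effect (horizontal, log2) for every tested peak, in grey bins shaded by the log10 number of peaks, with the 193 called peaks as coloured symbols by class. Most called peaks lie below the dashed line of equal effects, with an early effect near 1 and a late effect near 0, and the largest class is the 136 transient gains.

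Calls at each time alone would give a different picture. At 13429 peaks a gain was called early and not late, and the interaction was called at 136 of these transient gains, or 1.01%. The late effect had the same sign as the early effect at 88.3% of the 13429, with a median of 0.31 late and 0.82 early. A loss was called early and not late at 8532 peaks, of which 15 (0.176%) had the interaction. Delayed gains, called late and not early, numbered 5937, of which 3 (0.0505%) had it, and delayed losses numbered 5692, of which 8 (0.141%) had it. In all, 33590 peaks were called at 1 time only and 162 of them, 0.482%, had an effect that differed between the times by the test of the difference. An unadjusted interaction p under 0.05 was found at 39.4% of the 13429 and 30.4% of the 8532. It was found at 24% of the 5937 and 20.5% of the 5692, against 9.57% of all tested peaks. Sorting by calls at 1 time fixes these shares in part. A missing interaction call does not show that the effect was equal at both times. Both times were called in the same direction at 8954 peaks, 7351 higher and 1603 lower in Fra2, and 8937 of these had no interaction call. Among those 8954 the late effect was smaller in size at 5902 peaks, 17 of them with the interaction (0.288%, called weakened), and larger at 3052, with 0. The effect was called at both times in opposite directions at 20 peaks, and 14 of them had the interaction (called reversed).

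Transient gains were the largest class, with a median early effect of 1.26 and a median late effect of -0.01 over the 136 peaks. Their median levels were 7.45 CPM in late Fra2, 7.40 CPM in late control, 9.31 CPM in early Fra2 and 3.96 CPM in early control. The early control group was thus the low one, and the late control level stood near the late Fra2 level. These medians describe peaks chosen by the same contrast and carry no test.

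The largest transient gain by the naming rule lay 5.65 kb outside Rai14, which encodes an actin-associated ankyrin-repeat protein (chr15:10724665-10725166). It held 1.37, 1.71 and 1.90 CPM in late Fra2, 1.87, 1.39 and 2.13 CPM in late control, 2.61, 2.32 and 2.23 CPM in early Fra2 and 0.537, 0.145 and 0.28 CPM in early control. Only the early controls were low, and 2 of them lay under the value of 3 reads (0.218 CPM in early control 2 and 0.420 CPM in early control 3), so the size of its interaction, -2.89 (SE 0.62, adjusted p = 0.0317), depends on few reads. The peak near Cmklr1, the chemerin receptor (chr5:113664113-113664614), held 3.00, 2.77 and 2.52 CPM in late Fra2, 4.11, 4.10 and 4.63 CPM in late control, 4.56, 6.08 and 4.83 CPM in early Fra2 and 1.99, 2.03 and 2.66 CPM in early control. There the late Fra2 libraries lay below every late control library and the early Fra2 libraries above every early control library, and the interaction was -1.87 (SE 0.32, adjusted p = 0.00406). Peaks near Tnpo3, a nuclear import receptor, and in Ly9, an immune cell surface receptor, Phlpp1, a phosphatase that acts on Akt, and Sema4d, a semaphorin, had interactions between -1.98 and -1.84, with adjusted p between 0.0243 and 0.0458.

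Transient gains at genes of the lists were 1 peak each in or near Fbn1, Runx2, Mrtfa and Tcf4. Each was the only peak called lower in its list, where 0.0819% of all tested peaks were called lower, and they are described as single peaks. In the body of Fbn1, which encodes the microfibril protein fibrillin-1, a peak (chr2:125306896-125307397) held 15, 14 and 12.9 CPM in late Fra2 and 9.56, 12.2 and 8.89 CPM in late control. In early Fra2 it held 25.9, 23.8 and 21.3 CPM and in early control 7.78, 8.78 and 5.46 CPM. Fra2 stood above control at both times, the late effect of 0.45 missed the threshold (adjusted p = 0.0577), and the interaction was -1.20 (SE 0.23, adjusted p = 0.0149). In Runx2, the osteoblast transcription factor, a peak (chr17:44546784-44547285) held 10.5, 9.76 and 13.3 CPM in late Fra2, 14.6, 14.2 and 13.2 CPM in late control, 22.8, 22.6 and 17.6 CPM in early Fra2 and 13.9, 12.3 and 6.86 CPM in early control. The 2 control groups met in their ranges and the early Fra2 libraries stood above all others, with an interaction of -1.20 (SE 0.24, adjusted p = 0.0224). Next to Mrtfa, a coactivator of serum response factor, the peak at chr15:81192845-81193346 held 8.48, 7.41 and 5.22 CPM in late Fra2, 7.02, 8.69 and 8.53 CPM in late control, 7.6, 8.31 and 8.72 CPM in early Fra2 and 4.08, 3.12 and 3.92 CPM in early control. Here the early controls alone were low (interaction -1.33, SE 0.26, adjusted p = 0.016). A peak in Tcf4, a basic helix-loop-helix factor, had an interaction of -1.03 (SE 0.22, adjusted p = 0.033).

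The promoters printed above behaved in different ways within the same class. The peak over the Gm52671 start held 8.39, 6.24 and 7.55 CPM in late Fra2, 5.38, 6.09 and 6.28 CPM in late control, 7.74, 8.23 and 6.99 CPM in early Fra2 and 2.79, 2.83 and 2.66 CPM in early control. Its control shift of 1.09 was called (adjusted p = 0.000625) and its Fra2 shift was -0.04 (adjusted p = 0.941). The peak over the Gm29010 start held 3.30, 3.57 and 3.13 CPM in late Fra2, 5, 3.32 and 2.32 CPM in late control, 9.26, 10.6 and 6.2 CPM in early Fra2 and 3.27, 1.89 and 3.22 CPM in early control. There the Fra2 shift of -1.38 was called (adjusted p = 2.11e-05) and the control shift was 0.33 (adjusted p = 0.528). The interaction was -1.14 (SE 0.26, adjusted p = 0.044) at Gm52671, -1.71 (SE 0.32, adjusted p = 0.0125) at Gm29010 and -1.81 (SE 0.39, adjusted p = 0.0302) at Gm15462. The smallest p of all belonged to the peak in the olfactory receptor gene Olfr654 (chr7:104588138-104588639), named here after its values were seen. It held 4.71, 4.21 and 5.34 CPM in late Fra2, 5.53, 5.01 and 5.18 CPM in late control, 8.97, 9.19 and 9.15 CPM in early Fra2 and 2.63, 2.39 and 2.66 CPM in early control. The Fra2 arm fell with time (-0.94, adjusted p = 0.000381) and the control arm rose (1.03, adjusted p = 0.00162), and the interaction was -1.97 (SE 0.26, adjusted p = 5.95e-05). The TGAATCA match printed for Olfr654 lies outside that peak.

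Transient losses numbered 15, and their interaction was positive. In Ptpn11, which encodes the phosphatase SHP2, a peak (chr5:121139073-121139574) held 2.87, 3.09 and 5.77 CPM in late Fra2, 3.29, 2.29 and 1.58 CPM in late control, 2.09, 1.92 and 1.95 CPM in early Fra2 and 4.40, 4.57 and 3.92 CPM in early control. The early Fra2 libraries lay below every early control library and the late groups overlapped (interaction 1.83, SE 0.35, adjusted p = 0.016). Near Aig1, which encodes a lipid hydrolase, the early effect of -1.91 (adjusted p = 1.25e-06) had no late counterpart (-0.15, adjusted p = 0.763), and the interaction was 1.76 (SE 0.39, adjusted p = 0.038). The class also held Wdfy3, an autophagy adaptor (2.07), Clec16a, a regulator of mitophagy (1.99), Map3k5, the stress kinase ASK1 (1.70), and Gstt2, a glutathione transferase (1.40), with adjusted p between 0.0423 and 0.0471. Just beyond Id1, which encodes an inhibitor of helix-loop-helix factors, 2 neighbouring peaks of this class (chr2:152738918-152739419 and chr2:152738016-152738517) had interactions of 1.36 (adjusted p = 0.00422) and 1.12 (adjusted p = 0.0243).

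Delayed effects were few. The 3 delayed gains included a peak in Kcnq3, a potassium channel gene (chr15:66037935-66038436), with 2.57, 3.68 and 3.13 CPM in late Fra2, 0.598, 0.784 and 0.853 CPM in late control, 1.76, 1.36 and 2.09 CPM in early Fra2 and 1.56, 2.61 and 2.66 CPM in early control. Late Fra2 stood above late control in all libraries, the early groups overlapped, and the interaction was 2.38 (SE 0.49, adjusted p = 0.0263). The 8 delayed losses included a peak in Lcor, a nuclear receptor corepressor (chr19:41594182-41594683), with 2.10, 3.20 and 2.76 CPM in late Fra2, 5.53, 6.15 and 5 CPM in late control, 5.13, 5.76 and 4.11 CPM in early Fra2 and 3.92, 4.21 and 4.06 CPM in early control. Late Fra2 was the low group, and its fall with time of -0.91 was called (adjusted p = 0.00814). In Kit, the receptor of stem cell factor (chr5:75633213-75633714), late Fra2 held 6.81, 4.91 and 5.71 CPM, late control 7.92, 9.35 and 9.02 CPM, early Fra2 7.55, 7.67 and 5.84 CPM and early control 4.61, 4.50 and 6.44 CPM. At Kit the control arm rose by 0.81 (adjusted p = 0.00448) and the Fra2 shift of -0.27 was not called (adjusted p = 0.512). The interaction was -1.36 at Lcor (SE 0.29, adjusted p = 0.0297) and -1.08 at Kit (SE 0.24, adjusted p = 0.0462). Of the others, Arhgef7 had -1.32, Zfpm1, a cofactor of GATA proteins, -1.23, Ralgps1, an exchange factor for Ral, -1.20 and Tnr, tenascin-R, -1.18. Delayed does not mean absent early. The median effect of the 8 delayed losses was 0.50 early and -0.75 late, and that of the 3 delayed gains -0.62 early and 1.14 late. At Tnr, Kit, Zfpm1, Arhgef7 and Ralgps1 an early gain of 0.49 to 0.55 narrowly missed the threshold (adjusted p between 0.0523 and 0.069).

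Reversed effects numbered 14, 8 with an early gain and 6 with an early loss. Outside Nsd2, which encodes a histone H3 lysine methyltransferase, the peak at chr5:33803420-33803921 held 5.44, 5.87 and 5.96 CPM in late Fra2, 9.71, 7.06 and 7.98 CPM in late control, 7.41, 7.35 and 7.13 CPM in early Fra2 and 3.86, 2.32 and 3.22 CPM in early control. Fra2 was below control late and above it early, with no overlap at either time, and the interaction was -1.72 (SE 0.25, adjusted p = 0.000566). The control shift there was 1.37 (adjusted p = 1.09e-05) and the Fra2 shift -0.35 (adjusted p = 0.349). The largest reversed value was outside Gap43, a growth cone protein gene (chr16:42231165-42231666), with 2.10, 2.03 and 1.35 CPM in late Fra2, 0.299, 0.543 and 0.731 CPM in late control, 0.949, 0.959 and 0.504 CPM in early Fra2 and 1.18, 1.74 and 4.34 CPM in early control. Late control 1 lay near the value of 3 reads there (0.224 CPM in that library), so the size of the interaction depends on few reads. Early control 3 was far above the other early controls there, and the interaction of 3.20 (SE 0.63, adjusted p = 0.0174) was 2.59 without it (adjusted p = 0.028). In Kcnh5, a potassium channel gene, and Pacs2, which encodes a sorting protein, it was 2.34 and 1.66.

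Fibronectin differed from most of the called peaks in where the change lay. In the body of Fn1, 2 neighbouring peaks were called, the lower one reversed and the upper one delayed. The lower (chr1:71643279-71643780) held 6.98, 7.04 and 6.02 CPM in late Fra2, 4.26, 2.78 and 4.45 CPM in late control, 1.90, 1.76 and 2.52 CPM in early Fra2 and 3.92, 2.90 and 3.36 CPM in early control. Its neighbour (chr1:71644163-71644664) held 5.05, 5.33 and 5.46 CPM in late Fra2, 3.06, 2.35 and 2.44 CPM in late control, 1.80, 1.60 and 1.87 CPM in early Fra2 and 3.60, 1.89 and 2.52 CPM in early control. The Fra2 libraries were the lowest early and the highest late, while the controls overlapped between the times. The Fra2 shift was 1.70 (adjusted p = 4.21e-07) and 1.57 (adjusted p = 2.11e-05), and the control shift was 0.15 (adjusted p = 0.786) and -0.08 (adjusted p = 0.917). The interactions were 1.55 (SE 0.31, adjusted p = 0.0175) and 1.65 (SE 0.34, adjusted p = 0.0283).

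The 17 weakened peaks kept a called gain at both times. In Pfkfb3, which encodes an enzyme that sets the level of a glycolysis activator, the peak at chr2:11540491-11540992 held 5.22, 5.6 and 4.42 CPM in late Fra2, 3.44, 2.35 and 3.41 CPM in late control, 8.64, 7.99 and 8.29 CPM in early Fra2 and 1.40, 1.60 and 1.96 CPM in early control. The effect was 0.74 late and 2.39 early, and the interaction -1.65 (SE 0.30, adjusted p = 0.00961). Both arms moved toward each other, with a Fra2 shift of -0.71 (adjusted p = 0.0171) and a control shift of 0.94 (adjusted p = 0.02). Dnajc6, which encodes auxilin, Etl4 and Mbnl3, a splicing regulator, had interactions of -1.44, -1.36 and -1.34.

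**Figure D2:**
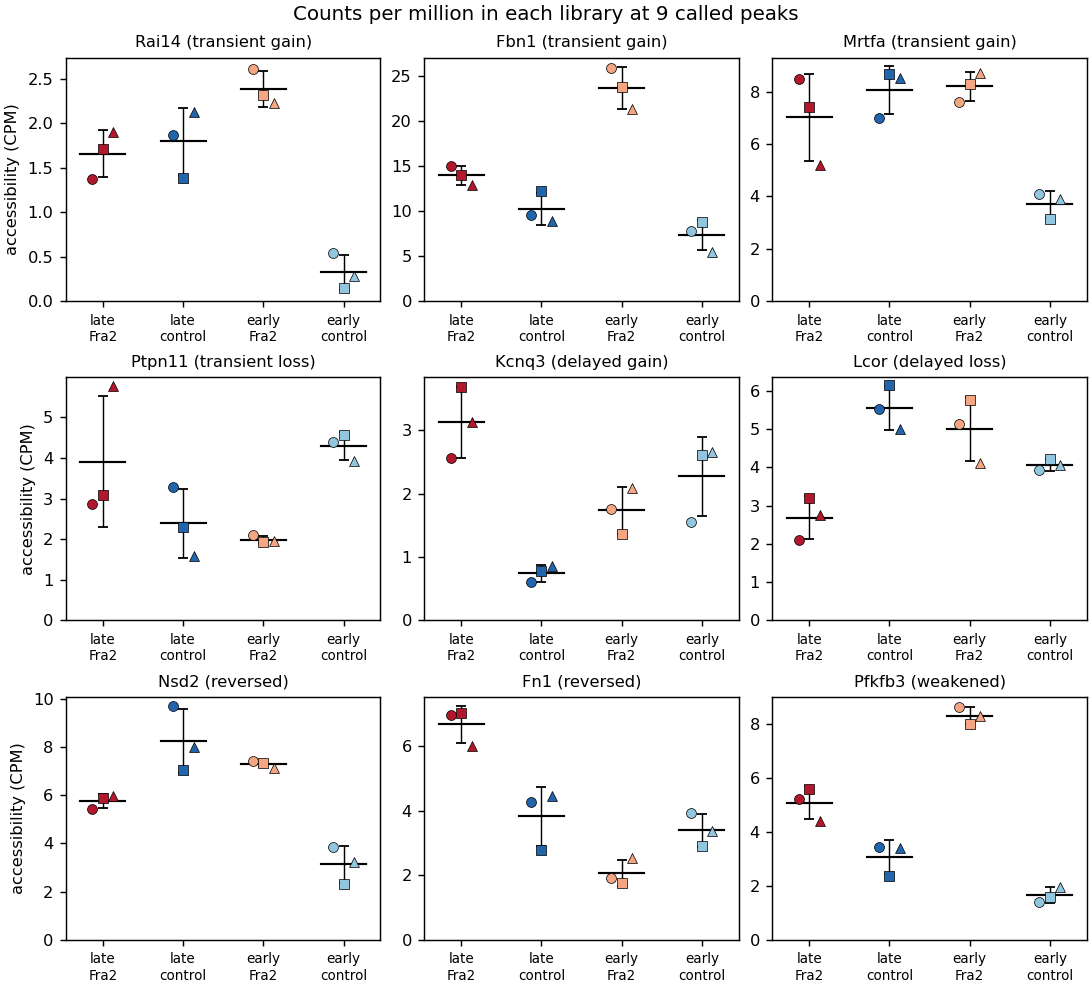
Accessibility in CPM (vertical, from 0) in each of the 12 libraries at 9 called peaks, with replicates 1, 2 and 3 as circle, square and triangle, the group mean as a bar and the SD as whiskers. At Rai14 and Mrtfa the early controls are the low group, at Lcor late Fra2 is the low group, and at Fn1 the Fra2 libraries are lowest early and highest late.

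How far the interaction came from the controls was measured by the control share, which is the control shift with its sign turned, divided by the interaction. A value of 1 means that the control arm moved by the whole interaction, and 0 means that the Fra2 arm did. The shares use the libraries that chose the peaks, so they are a description. The median control share over the 193 peaks was 0.72. It was above 0.667 at 109 peaks (56.5%, mostly control shift), below 0.333 at 24 (mostly Fra2 shift) and between these at 60. As separate tests, the control shift was called at 6766 peaks of all tested (3.28%, 2.04% higher and 1.23% lower) and the Fra2 shift at 3062 (1.48%, 0.393% higher and 1.09% lower). Among the 193, the control shift alone was called at 140, the Fra2 shift alone at 42, both at 7 and neither at 4.

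The classes differed in this share. Transient gains had a median of 0.77, with 84 of 136 mostly control shift, 37 between and 15 mostly Fra2 shift. Weakened peaks had 0.73, with 11 of 17 mostly control shift, and delayed losses 0.69, with 4 of 8. Reversed peaks with an early gain had 0.68, with 5 of 8 mostly control shift and 3 mostly Fra2 shift. Transient losses had 0.48, with 3 of 15 mostly control shift and 10 between. The differences between classes were not tested. In Pde4d, a cAMP phosphodiesterase gene named after its values were seen, a transient gain held 8.30, 6.88 and 8.78 CPM in late Fra2, 7.10, 8.14 and 5.91 CPM in late control, 6.69, 6.32 and 5.12 CPM in early Fra2 and 1.40, 1.96 and 2.38 CPM in early control, with the highest share of the 193 (1.25). The lowest share was -0.10, at the lower Fn1 peak. A share near 0 was also found near Prss38, a serine protease gene chosen in the same way, where the peak held 13.5, 11.4 and 9.95 CPM in late Fra2, 11.4, 12.3 and 13 CPM in late control, 23.3, 25.9 and 22.1 CPM in early Fra2 and 14.1, 12.6 and 9.24 CPM in early control. Its control shift had an adjusted p of 0.998, and its Fra2 arm fell by 1.03 on the log2 scale (adjusted p = 2.03e-05).

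**Figure D3:**
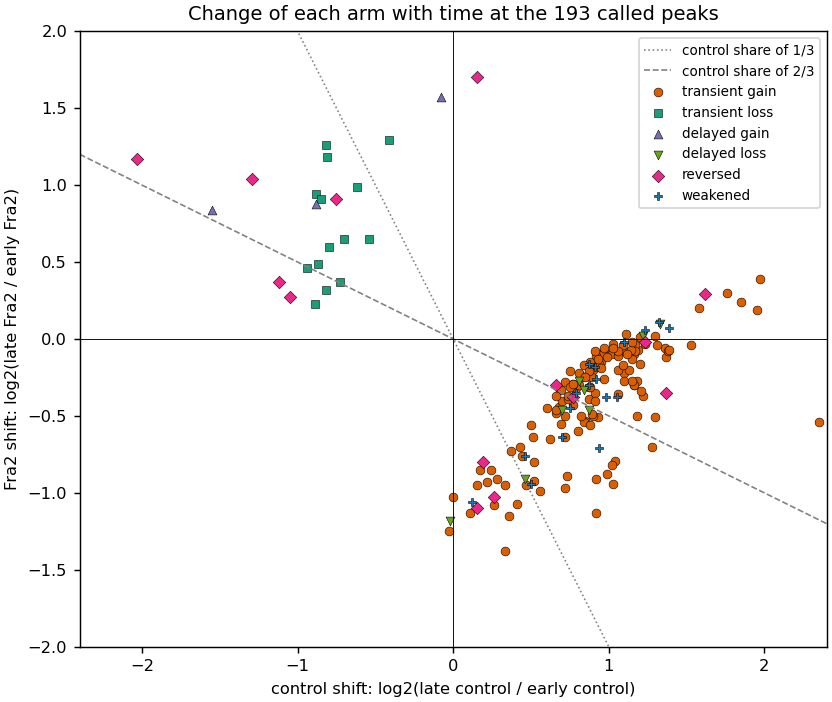
Fra2 shift (vertical, log2 of late Fra2 over early Fra2) against control shift (horizontal, log2 of late control over early control) for the 193 called peaks, coloured by class, with lines at control shares of 1/3 and 2/3. Most transient gains lie near a control shift of 1 and a Fra2 shift between -0.5 and 0, and the 2 Fn1 peaks lie at the top with a control shift near 0.

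Peaks sorted by calls alone, with no interaction asked for, had larger median control shifts than Fra2 shifts in the classes called early and not late, and not in the delayed classes. Over the 13429 transient gains by calls the median control shift was 0.42 and the median Fra2 shift -0.12, with the control shift called at 16.1% and the Fra2 shift at 4.36%. Over the 8532 transient losses the medians were -0.37 and 0.15, with the control shift called at 7.27% and the Fra2 shift at 1.43%. Over the 5937 delayed gains they were -0.25 and 0.29, with 3.89% and 2.98% called. Over the 5692 delayed losses they were 0.10 and -0.25, with the control shift called at 2.97% and the Fra2 shift at 4.5%. A class called at 1 time only draws on the controls and the Fra2 libraries of that time for its own call, so these values are fixed in part by the sorting and carry no test.

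The Ezh2 inhibitor libraries took no part in the contrast, and their levels at the same peaks are given as a description. Over the 136 transient gains their median was 4.83 CPM, near the 3.96 CPM of early control, and their mean lay below that of late control at 129 of the 136. They lay below late control at 0 of the 15 transient losses, where their median was 4.51 CPM, against 2.61 CPM in late control and 4.30 CPM in early control. Over all tested peaks the inhibitor mean lay below late control at 50%. The contrast that chose the peaks favours late controls that are high at transient gains and low at transient losses, so nothing is read from these counts. The labels do not state whether those cells were transduced or sorted.

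Early control 3 was the shallowest library, and its label gives another day. The lowest correlation within the early control group was 0.783, between early controls 1 and 3, against 0.896 to 0.924 for the lowest in the other 3 groups. Early control 2 had a lowest correlation of 0.789. Both values may involve early control 3, so they do not show that early controls 1 and 2 differ from each other. At the 136 transient gains early control 3 was the lowest of the 3 early controls at 87 and the highest at 27, with medians of 4.37, 3.81 and 3.43 CPM in early controls 1, 2 and 3. Without it, the interaction was called at 531 peaks, 96 higher and 435 lower, and 191 of the 193 were among them. The median size over the 193 was 1.25 with it and 1.19 without it. MACS2 had called a peak of its own (q at most 0.01) in early control 3 at 17.6% of the 193, against 76.7% to 99% in the other 11 libraries, and at 24.1% of all tested peaks, against 57% to 90.6%.

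The number of calls moved with every library. It was 101, 31 and 29 without late Fra2 replicates 1, 2 and 3, and 117, 22 and 68 without late control replicates 1, 2 and 3. It was 39, 38 and 219 without early Fra2 replicates 1, 2 and 3, and 579, 71 and 531 without early control replicates 1, 2 and 3. All 193 peaks kept their sign in all 12 of these fits, which was likely beforehand because the same libraries chose them. Of the 193, 14 were called in every one of these fits. Of the 33 named peaks, 3 remained called without late control 2. The 14 peaks called in all 12 fits were listed after this was seen. These 14 include Nsd2, Cmklr1, Pfkfb3, Olfr654, the Id1 peak at chr2:152738918-152739419, and peaks in or near Glce, Shq1, Sdccag8, 3110040M04Rik, Zpr1, Tmprss2 and Dcstamp, with 2 that have no gene within 100 kb. Calls were concentrated among peaks with many reads: 101 of the 193 lay in the fifth of peaks with the highest level, where the median SE of the interaction was 0.23, and 6 in the lowest, where it was 0.51.

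**Figure D4:**
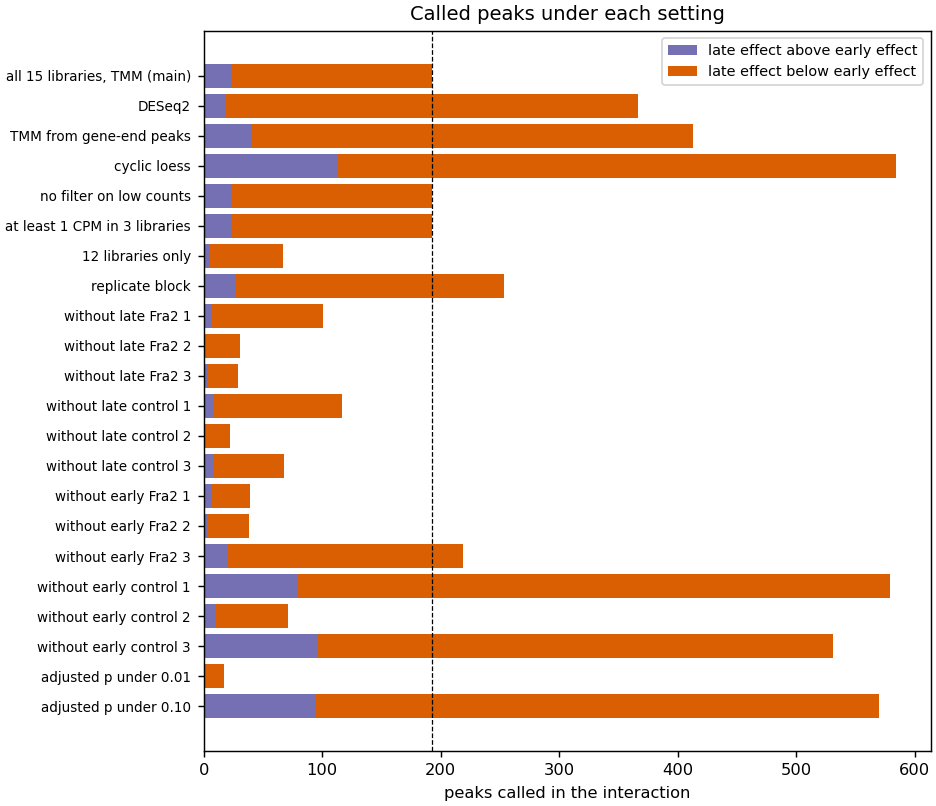
Number of peaks called in the interaction (horizontal, from 0) under each setting, split into a late effect above and below the early effect, with the dashed line at the 193 of all 15 libraries. Calls with the late effect below the early effect make up most of every bar, and the total runs between 17 and 584.

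Counts summed over the peaks nearest to each protein-coding gene gave 18297 genes, of which 13 (0.071%) were called in the interaction, 2 higher (0.0109%) and 11 lower (0.0601%), and 1891 had an unadjusted p under 0.05. The Fra2 effect was called at 23.9% of genes late and 26.5% early, the Fra2 shift at 1.38% and the control shift at 4.58%. All 13 are given, some outside the naming rule. Id1 had summed levels of 101, 99.6 and 100 CPM in late Fra2, 84.0, 93.2 and 83.8 CPM in late control, 88.1, 90.0 and 89.7 CPM in early Fra2 and 120, 117 and 102 CPM in early control. Fra2 was above control late and below it early, in all libraries, and 10 of its 13 peaks had a positive interaction. The sum gave 0.55 (SE 0.08, adjusted p = 0.00215) with a control share of 0.70. Lvrn, an aminopeptidase gene, had 45.6, 47.1 and 48.2 CPM in late Fra2, 30.2, 31.5 and 35.2 CPM in late control, 36.2, 36.1 and 40.6 CPM in early Fra2 and 42.1, 43.2 and 42.2 CPM in early control. All 10 of its peaks had a positive interaction and 0 were called alone, and the sum gave 0.71 (SE 0.11, adjusted p = 0.00215). There the Fra2 arm rose (0.32, adjusted p = 0.0248) and the control arm fell (-0.39, adjusted p = 0.00405).

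The 11 lower genes had varied roles. Wnt10b, a Wnt ligand gene, had 47.7, 45.2 and 47.6 CPM in late Fra2, 49.3, 54.2 and 54.5 CPM in late control, 53.2, 53.9 and 53.1 CPM in early Fra2 and 42.5, 39.5 and 40.9 CPM in early control. It was gained early and not late, with an interaction of -0.55 (SE 0.09, adjusted p = 0.0154). Csf2, the gene of the cytokine GM-CSF, had 76.4, 73.1 and 70.6 CPM in late Fra2, 72.2, 70.3 and 72.2 CPM in late control, 80.6, 79.0 and 81.1 CPM in early Fra2 and 59.5, 56.4 and 61.4 CPM in early control. The early controls were the low group (-0.41, SE 0.08, adjusted p = 0.049), and with peaks within 10 kb of Csf2 only the value was 0.38 (adjusted p = 0.502), so its call rests on peaks farther away. Ltbp1, which encodes a binding protein of latent TGF-beta, had 414, 412 and 398 CPM in late Fra2, 402, 377 and 383 CPM in late control, 413, 409 and 412 CPM in early Fra2 and 333, 324 and 313 CPM in early control, with a control share of 0.96 (interaction -0.27, SE 0.05, adjusted p = 0.0446). Bnc2, a zinc finger gene, had the lowest share, 0.31, and a Fra2 arm that fell (-0.20, adjusted p = 0.00686), with an interaction of -0.28 (SE 0.05, adjusted p = 0.0328). Gpc1, a glypican gene (-0.36), and Apol8, an apolipoprotein L gene (-0.35), were reversed, with Fra2 below control late and above it early. Arid5a, which encodes an RNA-binding protein (-0.40), was a delayed loss. Ndrg1, a stress-response gene (-0.40), Adamts16, a metalloprotease gene (-0.37), Insyn1, an inhibitory synapse gene (-0.37), and Olfr654 (-1.94, on 1 peak) were transient gains. For Adamts16 the peaks at gene ends alone gave 0.43 (adjusted p = 0.85).

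**Figure D5:**
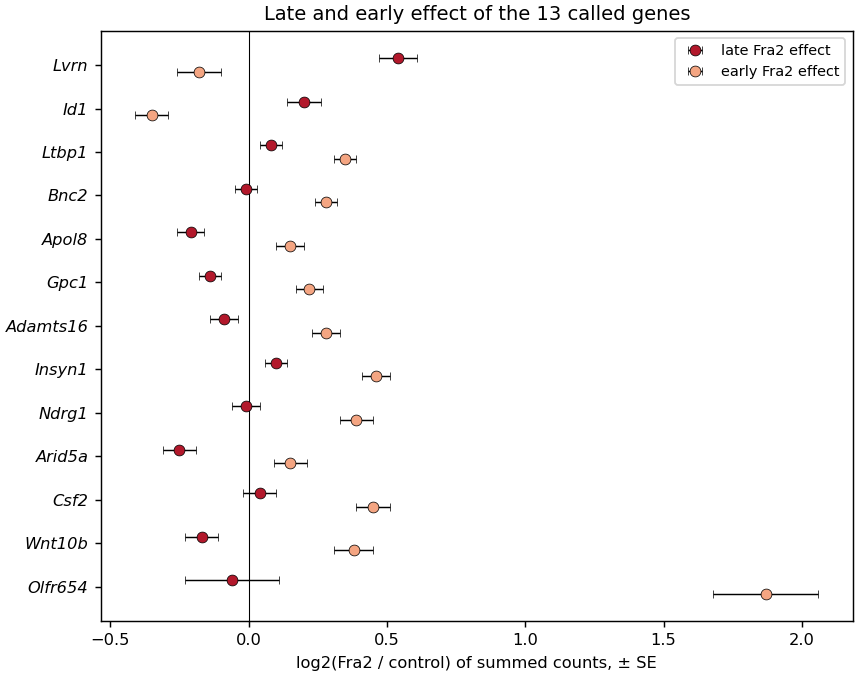
Late and early Fra2 effect (horizontal, log2 of Fra2 over control in summed counts, with SE) for the 13 called genes. For Lvrn and Id1 the late effect is above the early effect, and for the other 11 it is below it, with early values between 0.15 and 1.87.

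The 20 gene lists held 6 called peaks of 9471, each peak counted once (0.0634%, against 0.0935% of all tested), which is near the background and is no result about the lists. An unadjusted p under 0.05 was found at 9.57% of all tested peaks. The list of AP-1 family genes had 0 of 299 peaks called in the interaction and 18 with an unadjusted p under 0.05 (6.02%). The 972 peaks at wound genes and targets of AP-1 had 0 called, with 121 unadjusted (12.4%). TGF-beta and matrix genes had 2 higher (both at Fn1) and 1 lower (Fbn1) of 1262. Fibroblast identity genes had 1 lower of 807 (Tcf4), myofibroblast genes 1 lower of 970 (Mrtfa) and chondrogenic and osteogenic genes 1 lower of 444 (Runx2). The other 14 lists, among them cell cycle, Hox cluster, Polycomb-bound regulators, PRC2 and PRC1 subunits, adipogenic, YAP and TEAD, and senescence and p53 genes, had 0. List medians of the interaction lay between -0.11 (epithelial) and 0.10 (skeletal and cardiac muscle), against -0.01 for all peaks. Without early control 3, 25 of the 9471 list peaks were called, beside 531 over the whole set of 206349. That count too is near the background and is no result about the lists. The 25 held peaks of both directions, among the lower ones Acta1 (-1.20) and Sox5 (-1.19). Among the higher ones were Fos (1.24, adjusted p = 0.025), which encodes an AP-1 subunit, and 2 peaks of Thbs1 (1.07 and 1.08, adjusted p = 0.0226 and 0.0269). Thbs1 encodes the matrix protein thrombospondin-1. With all libraries the Fos and Thbs1 values were 1.16, 0.95 and 1.09, with adjusted p between 0.0529 and 0.109.

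In some lists both arms moved with time and the interaction did not pass. Interferon response genes had 19 of 170 peaks lower and 0 higher in the Fra2 shift (11.2% called, against 1.48% of all), and 15 lower and 3 higher in the control shift (10.6%, against 3.28%). The interaction had 0 called, 15 with an unadjusted p under 0.05 (8.82%, against 9.57% of all) and a median of 0.00. At the start of Isg15, a ubiquitin-like interferon-induced protein gene (chr4:156200599-156201100), the levels were 3.90, 3.73 and 4.30 CPM in late Fra2, 2.54, 4.34 and 5.24 CPM in late control, 11.2, 10.2 and 8.07 CPM in early Fra2 and 12.7, 10.6 and 8.4 CPM in early control. Every late library was below every early library, by -1.32 in the Fra2 arm (adjusted p = 4.43e-06) and -1.40 in the control arm (adjusted p = 3.74e-06), and the interaction was 0.08 (SE 0.26, adjusted p = 0.952). At the start of Oas1a, which encodes an enzyme of the antiviral response (chr5:120907286-120907787), the levels were 2.78, 2.35 and 1.90 CPM in late Fra2, 4.41, 5.43 and 5.73 CPM in late control, 7.69, 6.71 and 4.47 CPM in early Fra2 and 7.35, 5.22 and 8.68 CPM in early control. Late Fra2 was the low group, with an interaction of -1.01 (SE 0.28, adjusted p = 0.142), which was -1.13 without early control 3 (adjusted p = 0.038). Peaks at wound genes and targets of AP-1 moved the other way, with 53 of 972 peaks higher and 8 lower in the Fra2 shift (6.28%) and 45 higher and 10 lower in the control shift (5.66%).

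The 193 peaks were seldom at start sites. A start site lay within 1 kb of the centre of 6 of them (3.11%, against 11.9% of all tested), 99 lay in a gene body (51.3%, against 47.6%), 60 outside genes (31.1%, against 29.3%), and 28 had no gene within 100 kb (14.5%, against 11.2%). They had 160 different nearest genes, and 8 of them had another called peak within 5 kb. Their median level was 6.70 CPM, against 3.26 CPM over all tested peaks.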

How the data were processed

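The measurement was Omni-ATAC-seq of mouse embryonic fibroblasts, in 15 libraries grouped by their titles. The main values were raw read counts per consensus peak as deposited, whole numbers with no normalization. The authors called peaks with MACS2 and used build mm10, per the submitters' processing notes, and the deposited peak list of each library gives a −log10 q per peak. The aligner, duplicate handling, counter and the making of the consensus peaks were not given in the sources used here, and each can change counts at repeated sequence.

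Counts were scaled by TMM, filtered by expression in each group (18 peaks removed) and fitted with edgeR 4.0.16 (quasi-likelihood, 1 mean per group, all 15 libraries, R 4.3.3). Effects, shifts and the interaction are contrasts of that fit, called at a Benjamini-Hochberg adjusted p under 0.05 over all 206349 peaks. SE is the log2 value divided by the root of its F. CPM are TMM-scaled. With 3 libraries a group and 6.75 to 23.4 M reads in peaks, the median SE of the interaction was 0.33. Intervals of this kind cover these libraries only.

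Each peak was given its nearest protein-coding gene within 100 kb and counts were summed per gene. Gene places come from RefSeq (GRCm38.p6, the assembly of mm10). Transient means called early and not late, delayed the reverse, reversed called at both times with opposite signs, weakened called at both with the late effect smaller. Named peaks are the largest called with and without early control 3 (up to 6 per transient or delayed class and 4 per other class, mean of at least 1 CPM, 1 per gene), called peaks of 20 gene lists, and peaks within 10 kb of Fosl2. The members, lists and rules were chosen with earlier results of these data known. Alternatives were DESeq2 1.42.0, TMM from gene-end peaks, cyclic loess (limma 3.58.1), other filters and thresholds, 12 libraries only, a replicate block and each library left out. The scripts were tested on simulated data.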

Additional observations from a re-analysis of the deposited data

Results flagged for a closer look

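The difference between the late and the early Fra2 effect was itself tested, and every result given here passed that test in edgeR at an adjusted p under 0.05 over all peaks or genes. There were 193 such peaks and 13 such genes.

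A late effect below the early effect was found at named peaks of the classes of early gain. The interaction was -2.89 near Rai14, -1.98 near Tnpo3, -1.87 near Cmklr1, -1.84 in Ly9, -1.84 in Phlpp1, -1.84 in Sema4d, -1.33 near Mrtfa, -1.20 in Runx2, -1.20 in Fbn1, -1.03 in Tcf4 and -1.72 near Nsd2. Among weakened gains it was -1.65 in Pfkfb3, -1.44 in Dnajc6, -1.36 in Etl4 and -1.34 near Mbnl3. Among delayed losses it was -1.36 in Lcor, -1.32 in Arhgef7, -1.23 near Zfpm1, -1.20 in Ralgps1, -1.18 in Tnr and -1.08 in Kit.

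A late effect above the early effect was found near Gap43 (3.20), in Kcnq3 (2.38), Kcnh5 (2.34), Wdfy3 (2.07), Clec16a (1.99), Ptpn11 (1.83), near Aig1 (1.76) and Map3k5 (1.70), in Pacs2 (1.66), at the Fn1 pair (1.55 and 1.65) and in Gstt2 (1.40).

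At gene level the interaction was 0.71 for Lvrn and 0.55 for Id1. It was -1.94 for Olfr654, -0.55 for Wnt10b, -0.41 for Csf2, -0.40 for Arid5a, -0.40 for Ndrg1, -0.37 for Adamts16, -0.37 for Insyn1, -0.36 for Gpc1, -0.35 for Apol8, -0.28 for Bnc2 and -0.27 for Ltbp1.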

How the results depend on the processing

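All 193 called peaks kept their sign in every alternative fit run. They were chosen from the same counts for large interactions, so a kept sign was likely beforehand and is no independent support. The number of calls did not hold. DESeq2 called 366 peaks (19 higher, 347 lower, 152 of the 193 among them), in classes of 289 transient, 32 delayed, 3 reversed and 37 weakened, and 81 genes. TMM factors from gene-end peaks gave 413 peaks (40 higher, 373 lower), with 252 transient, 21 delayed and 120 weakened, and 65.9% mostly control shift. Cyclic loess gave 584 peaks (113 higher, 471 lower), with 394 transient, 67 delayed, 36 reversed and 87 weakened, and 6 genes. The 12 libraries alone gave 67 peaks (5 higher, 62 lower), with 56 transient, 2 delayed, 3 reversed and 6 weakened, and 4 genes. An adjusted p under 0.01 left 17 peaks (1 higher, 16 lower), 16 transient, 0 delayed, 0 reversed and 1 weakened, and 3 genes. One under 0.10 gave 570 (95 higher, 475 lower), with 374 transient, 55 delayed, 66 reversed and 75 weakened, and 28 genes. A control share of 0.5 as the only limit put 76.7% of peaks with the controls. Gene-end peaks alone called 5 genes. No filter, or a minimum of 1 CPM in 3 libraries, called the same 193 peaks and 13 genes. The causes of these changes were not tested.

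With each library left out, peaks ran between 22 and 579 (1 to 96 higher, 21 to 500 lower), transient peaks between 21 and 433, delayed between 0 and 59, reversed between 0 and 46, weakened between 0 and 70, genes between 3 and 73, and the percent mostly control shift between 48.3 and 66.8. Of 33 named peaks and 13 genes, 30 and 10 lost the call without late control 2, 18 and 9 with 12 libraries only and 19 and 1 under DESeq2. Of the named values, 2 changed sign: Csf2 with peaks within 10 kb of the gene (0.38) and Adamts16 with gene-end peaks alone (0.43). Deviations from the group mean had correlations between -0.192 and 0.262 for same-numbered libraries of different groups. For libraries with other numbers they ran between -0.272 and 0.204. Early Fra2 and early control gave 0.262 for replicates 1, -0.00847 for replicates 2 and 0.232 for replicates 3. Deviations within a group of 3 depend on each other, so this check cannot decide whether the numbers pair libraries. The replicate block gave 253 peaks, 192 of the 193 among them, with 26 weakened, and 13 genes, 11 of them shared. Peaks with few reads had a wide SE, and a missed call there shows no equal effect.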
